A study of Mus musculus with 4 samples.

Results

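The circadian clock output genes examined here were 10 genes of the mouse molecular clock and its direct outputs: Dbp, Tef, Hlf, Nr1d1, Nr1d2, Per1, Per2, Per3, Ciart and Arntl. They were taken by symbol from the 32285 genes of the deposited count matrices, and all 10 were found. The set was picked because Dbp was higher at 28 days post-amputation (dpa) than in unamputated tissue in fibroblast-like cells of an earlier analysis of the same libraries, so the values below describe that difference and do not test it. The question was whether the difference was seen in one cell class or in all of them. The study sampled the middle phalanx (P2) of the mouse digit, where the labels call the healing tissue fibrosing. It comprised 4 single-cell RNA libraries, 1 from unamputated digits and 1 each at 12, 17 and 28 dpa. All 4 came from wild-type FVB/NJ mice 8 weeks old, and the labels state that males and females were pooled. With 1 library per condition there was no replicate, no test was made between conditions, and every interval given is a 95% interval for counting error only. The labels give no hour of collection, so the hour, the day after amputation, the animals and the library cannot be told apart in any value below.

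The clock is a feedback loop in almost every cell. Arntl (also called Bmal1) and Clock form a pair that binds E-box sequences and switches on the Per and Cry genes, whose proteins later shut the pair off, while Nr1d1 and Nr1d2 (the REV-ERB receptors) repress Arntl through sites called ROREs. Dbp, Tef and Hlf are related PAR bZIP transcription factors that carry the rhythm to outputs through D-box sequences, and Dbp messenger RNA is known to peak in daytime in many tissues of the mouse, roughly opposite to Arntl. Clocks of skin, tendon, bone and blood vessels follow the same plan.

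The 4 libraries held between 8813 and 16045 barcodes and between 92313847 and 197140774 unique molecular identifiers (UMIs, counts of captured RNA molecules), and 35046 cells were kept. The median kept cell held 11636.5, 9543, 8511 and 6661 UMIs in the unamputated, 12, 17 and 28 dpa libraries. The classes defined by marker genes and compared here, 10 in number, had at least 50 cells in every library, and they are written here as fibroblast-like, tenocyte-like and so on. Transcripts of Y-linked genes were found in 77.9%, 58.4% and 47.2% of cells of the unamputated, 17 and 28 dpa libraries and in 0 of 6496 cells at 12 dpa, where 3523 cells held Xist, against 1, 0 and 0 cells in the other 3. The library labelled 12 dpa therefore went against the label of pooled sexes, as did the others, and the part of sex in its values was not tested. Pairs of libraries shared between 11 and 43 barcodes among kept cells.

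Dbp (ENSMUSG00000059824, chr7:45705088-45710203, plus strand, mm10) was higher at 28 dpa than in unamputated tissue in all 10 classes, and higher at 28 than at 17 dpa in all 10. Some members are introduced by their promoters, since the loop acts in part through short sites near the start of a gene. The sequences below run from 250 bases before to 50 bases after the start, are credited to RefSeq (GRCm38.p6), and were chosen to show Dbp, which differed most, beside 3 members whose windows held a match. Capitals mark matches to the E-box CACGTG, which is its own reverse complement, and to the D-box TTATGTAA or its reverse complement on either strand, which do not overlap one another. They lie at chr7:45704997-45705296 (plus strand) for Dbp, chr15:81802423-81802722 (plus strand) for Tef, chr4:151044616-151044915 (minus strand) for Per3 and chr3:95882179-95882478 (minus strand) for Ciart.
Dbp: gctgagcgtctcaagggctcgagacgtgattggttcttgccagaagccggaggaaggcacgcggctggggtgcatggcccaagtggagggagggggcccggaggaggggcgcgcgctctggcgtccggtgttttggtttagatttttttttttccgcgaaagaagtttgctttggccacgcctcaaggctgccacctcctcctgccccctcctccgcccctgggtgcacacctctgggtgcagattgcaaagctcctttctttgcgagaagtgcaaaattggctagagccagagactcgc
Tef: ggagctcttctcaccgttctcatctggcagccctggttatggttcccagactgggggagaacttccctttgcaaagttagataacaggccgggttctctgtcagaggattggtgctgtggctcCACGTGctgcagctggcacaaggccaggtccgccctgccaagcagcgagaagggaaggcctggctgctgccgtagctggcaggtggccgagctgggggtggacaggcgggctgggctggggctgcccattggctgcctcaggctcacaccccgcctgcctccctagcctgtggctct
Per3: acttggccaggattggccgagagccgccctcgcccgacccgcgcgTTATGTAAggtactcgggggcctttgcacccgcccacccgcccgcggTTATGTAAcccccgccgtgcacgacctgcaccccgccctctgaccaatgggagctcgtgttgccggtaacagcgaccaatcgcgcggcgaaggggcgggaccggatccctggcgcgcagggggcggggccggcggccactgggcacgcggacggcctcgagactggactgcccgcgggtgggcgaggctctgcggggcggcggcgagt
Ciart: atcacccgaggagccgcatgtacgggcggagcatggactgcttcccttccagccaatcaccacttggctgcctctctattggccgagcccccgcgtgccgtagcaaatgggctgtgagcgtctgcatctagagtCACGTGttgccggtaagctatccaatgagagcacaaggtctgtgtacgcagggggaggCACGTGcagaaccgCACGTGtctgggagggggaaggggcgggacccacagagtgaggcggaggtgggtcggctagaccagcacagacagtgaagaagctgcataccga

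The E-box was found in 7.15% of the 32851 promoters of the table, the D-box in 0.938% and the RORE (AGGTCA after a run of A or T bases, on either strand) in 0.484%. Counted by gene, a match in any listed promoter was found for 8.09%, 1.11% and 0.566% of 27025 genes. Promoters were listed for 9 of the 10 members, 12 promoters in all. Per2 was not among them. An E-box was present in windows of 3 members, Tef, Per1 and Ciart, a D-box in 1, Per3, and a RORE in 0. Ciart, a repressor of the Clock and Arntl pair, held E-boxes beginning 116, 58 and 44 bases before its start, and Per3 held D-boxes beginning 205 and 158 bases before it. Each match is a description of letters in a short window. The windows of Dbp, Nr1d1 and Arntl held no match.

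Dbp levels are given as counts scaled to 1000000 UMIs of the class (CPM). In fibroblast-like cells Dbp was at 17.9 CPM in the unamputated library and at 54.4, 29.8 and 107 CPM in the 12, 17 and 28 dpa libraries, from 231, 243, 550 and 2358 UMIs. In tenocyte-like cells it was at 11.5, 52.7, 31.9 and 124 CPM for those libraries, and in mural-like cells, the smooth muscle cells and pericytes of vessels, at 17.9, 48.5, 37.8 and 94.0 CPM. In these 3 classes the counting intervals of all 4 libraries were apart, with the order unamputated, 17, 12 and 28 dpa from low to high. In macrophage or monocyte-like cells Dbp was at 6.62, 15.4, 27.2 and 55.6 CPM, and in keratinocyte-like cells at 7.69, 23.1, 21.5 and 44.9 CPM. The macrophage or monocyte-like values were higher at each later day, with all intervals apart, but the clusters that make up this class differed between libraries, and the values within them are given beside Arntl. The intervals at 12 and 17 dpa overlapped in keratinocyte-like cells.

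In vascular endothelial-like cells Dbp was at 23.3, 46.8, 35.0 and 59.2 CPM in the unamputated, 12, 17 and 28 dpa libraries. In cartilage or joint lining-like cells it was at 25.0, 111, 40.8 and 82.7 CPM, and in Schwann-like cells, the glia of nerves, at 9.03, 38.2, 16.7 and 37.2 CPM. In these 3 classes the intervals at 12 and 28 dpa overlapped, and both lay above the unamputated interval. T or NK lymphocyte-like cells gave 9.68, 16.1, 12.0 and 28.8 CPM from only 14, 9, 6 and 6 UMIs, and dendritic-like cells gave 2, 0, 3 and 3 UMIs. Neighbouring intervals overlapped in both, so little can be read from either class alone. The unamputated library was lowest for Dbp in 9 of 10 classes and the 28 dpa library highest in 8.

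**Figure D1:**
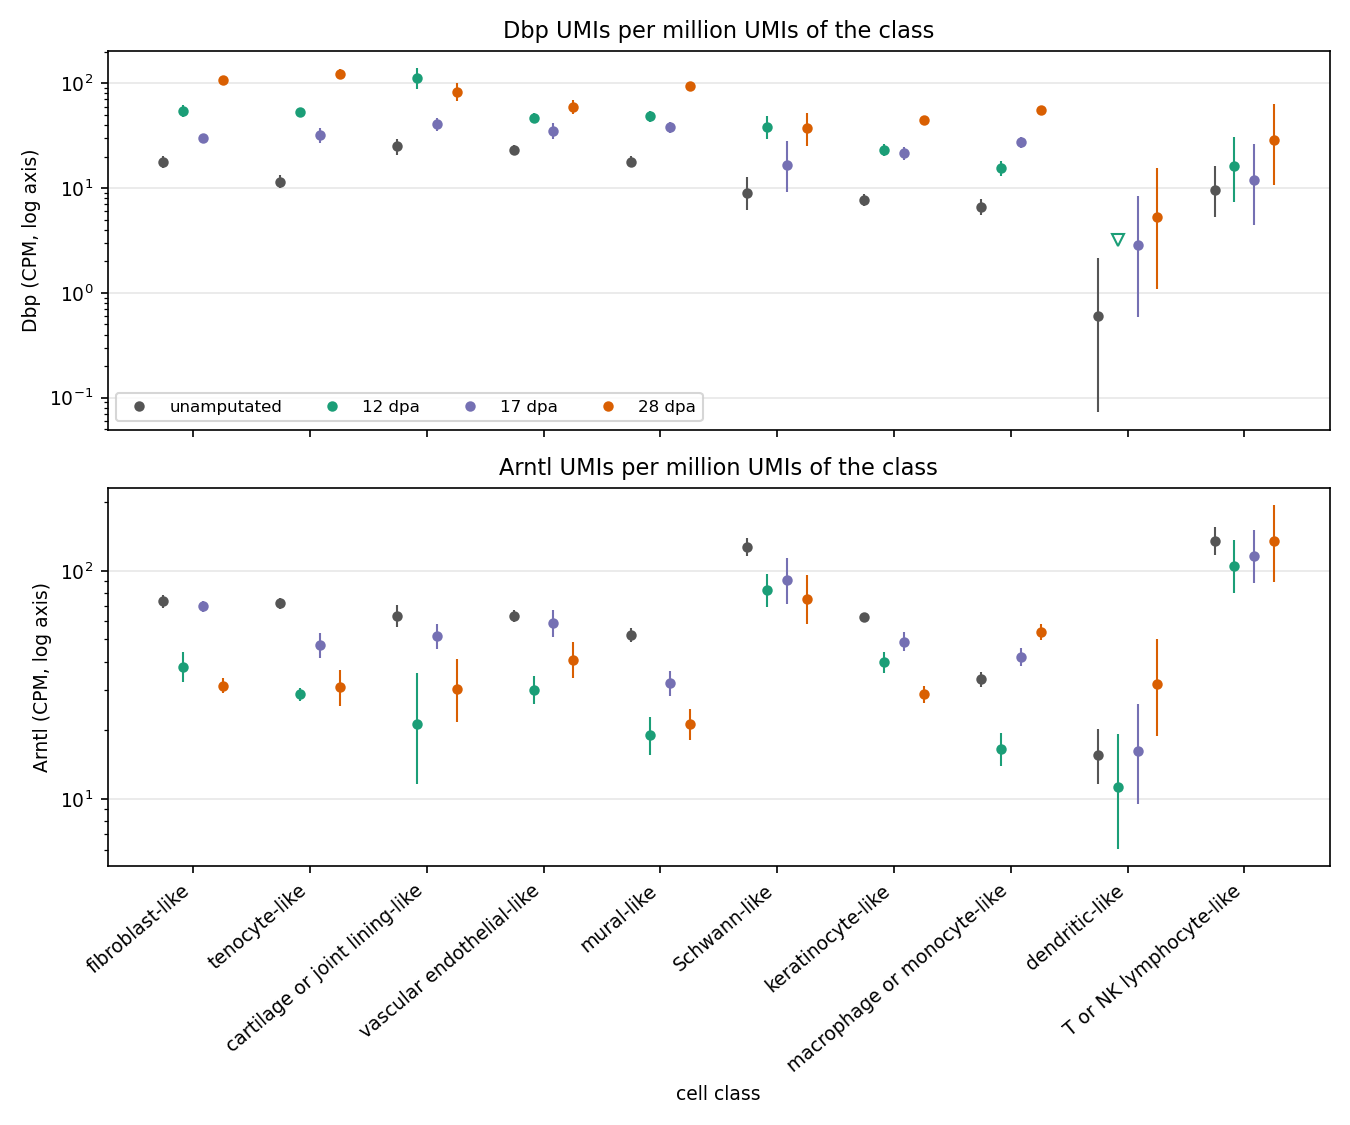
Dbp (top) and Arntl (bottom) in CPM on log axes, for each of 10 cell classes and 4 libraries; points are library values, bars are exact 95% Poisson intervals, and the open triangle is the upper limit where 0 UMIs were seen. Dbp at 28 dpa sits above the unamputated point in all 10 classes, and Arntl sits below it in 8.

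The log2 ratio of Dbp at 28 dpa over unamputated, taken on CPM plus 1, was 2.52 (2.34 to 2.71) in fibroblast-like, 3.32 in tenocyte-like, 2.89 in macrophage or monocyte-like, 2.40 in keratinocyte-like and 2.33 in mural-like cells. It was smallest in vascular endothelial-like cells at 1.31 and in T or NK lymphocyte-like cells at 1.48 (0.17 to 2.79). The mean over the 10 classes, each weighted equally, was 1.27 (1.06 to 1.48), 1.00 (0.78 to 1.22) and 2.19 (1.96 to 2.41) at 12, 17 and 28 dpa, with an SD over classes of 0.63 at 28 dpa. Against 17 dpa, a comparison that does not use the unamputated library, the 28 dpa mean was 1.18 (0.92 to 1.44). Dbp was at least 2-fold higher than unamputated in 7, 5 and 10 classes at 12, 17 and 28 dpa, and at least 2-fold higher at 28 than at 17 dpa in 8. The dendritic-like cells, with 2 and 3 Dbp UMIs and a mean of 2.19 CPM, were among the 5 at 17 dpa. Without the dendritic-like and T or NK lymphocyte-like cells the counts against unamputated were 7, 4 and 8 of 8 classes. The 8 classes at 28 over 17 dpa included T or NK lymphocyte-like cells, with 6 Dbp UMIs in each library. Cartilage or joint lining-like (82.7 against 40.8 CPM), macrophage or monocyte-like (55.6 against 27.2) and keratinocyte-like cells (44.9 against 21.5) were barely past 2-fold there. The median of all genes shifted by between -0.32 and -0.02 log2 across classes and comparisons, and relative to it the mean Dbp ratios were 1.42, 1.08 and 2.33 at 12, 17 and 28 dpa.

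The classes cut across mixtures of cells, so the same values were read within clusters. Dbp was higher at 28 dpa than in unamputated tissue in 23 of 23 clusters with at least 50 cells in both libraries, and at least 2-fold higher in 22. In 3 of these clusters neither library held more than 4 Dbp UMIs, so their ratios carry little weight. Against 17 dpa it was higher in 23 of 23 clusters and at least 2-fold higher in 13. The 2 fibroblast-like clusters, one led by Lsamp, Igf1 and Pi16 and one by Ccn3, Clec3b and Mfap5, gave Dbp ratios of 2.04 and 2.80. The Pi16-led cluster made up 329 of 645 unamputated fibroblast-like cells and 758 of 2123 at 28 dpa. These clusters were themselves mixed, so the cells were also split at Leiden resolution 2, a reading added after the values were seen. Of the cells in the Ccn3-led cluster, 18 of 316 unamputated and 1057 of 1365 at 28 dpa then fell in a finer cluster led by Ccn3, Prelp and Igfbp6, so the ratio of 2.80 compares largely different cells. A finer fibroblast-like cluster led by Sdk1, Fbn1 and Sema3e, with 245 and 265 cells in those libraries, gave a Dbp ratio of 2.09 (1.76 to 2.42), and one led by Igf1, Gdf10 and Lsamp, with 308 and 749 cells, gave 2.14 (1.85 to 2.43).

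The tenocyte-like class was mixed in the same way. Of its cells, 255 of 649 unamputated and 333 of 356 at 28 dpa fell in a finer cluster led by Fmod, Col11a1 and C1qtnf3, while 287 and 5 fell in one led by Kif26b, Fbn2 and Col7a1. Within the Fmod-led cluster Dbp was at 16.7, 68.1, 49.4 and 126 CPM in the unamputated, 12, 17 and 28 dpa libraries. Its ratio at 28 dpa over unamputated was 2.84 (2.57 to 3.12) there, against 3.32 for the whole class. Over all finer clusters with at least 50 cells in both libraries, Dbp was higher at 28 dpa than in unamputated tissue in 31 of 33 and at least 2-fold higher in 30, and in 3 of the 33 neither library held more than 4 Dbp UMIs. The 2 with a lower value rested on few UMIs at 28 dpa: a B-lineage-like cluster with 1 UMI against 4 unamputated (-0.13, -2.72 to 2.46), and a macrophage or monocyte-like cluster led by Cd74, H2-Ab1 and H2-Aa with 2 against 18 (-0.12, -1.76 to 1.52). The 3 other finer macrophage or monocyte-like clusters in that comparison gave 1.67, 2.10 and 3.09, and the last, with 85 unamputated and 1177 28 dpa cells, held most of that class at 28 dpa. Nr1d1 was higher in 33 of 33, and Arntl was lower in 28 and higher in 5. At 28 over 17 dpa Dbp was higher in 30 of 33 finer clusters and lower in 3, and at least 2-fold higher in 17.

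Osteoblast-like cells, with only 20 cells at 12 dpa, were outside the 10 classes and had 7.17, 37.0, 15.8 and 39.0 CPM of Dbp in the unamputated, 12, 17 and 28 dpa libraries.

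Depth and free RNA were measured beside Dbp. With every cell thinned to 2000 UMIs, 3.44% of unamputated fibroblast-like cells held a Dbp UMI (exact Clopper-Pearson interval 2.17 to 5.17), against 10.4%, 4.69% and 18.5% (16.8 to 20.2) at 12, 17 and 28 dpa. Without thinning the shares were 22.0%, 40.5%, 25.7% and 52.7%, at median depths of 19065, 12632, 12590 and 9056 UMIs. The cells named neutrophil-like, which came from the unamputated and 17 dpa libraries, served as the low class. Another cluster, with neutrophil markers but left unnamed by the naming rule, held 535, 280, 247 and 182 cells in the unamputated, 12, 17 and 28 dpa libraries. It is not part of the named class. In the named class 0.201% of thinned unamputated cells held a Dbp UMI, and 0 of 195 at 17 dpa, which allows a share of up to 1.87%. Their median depths were 6542 and 4838 UMIs. The most that free RNA from fibroblast-like cells could give was set by the collagen and proteoglycan transcripts seen in other classes, and at 28 dpa it came to 3.04 CPM of Dbp in vascular endothelial-like, 1.78 in keratinocyte-like and 2.24 in macrophage or monocyte-like cells. The Dbp levels observed there were 19.5, 25.3 and 24.8 times that bound. In Schwann-like cells at 28 dpa the observed level was 1.14 times the bound, and tenocyte-like and cartilage or joint lining-like cells make these collagens themselves, so the bound says nothing for them. Dbp exons overlap those of Sphk2 on the other strand, and the strand setting of the counting is not given in the sources used here.

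Tef (chr15:81802421-81826863), the PAR bZIP factor closest to Dbp in its behaviour here, was higher at 28 dpa than in unamputated tissue in 9 of 10 classes, by smaller ratios. In fibroblast-like cells it was at 17.9, 30.9, 29.4 and 38.2 CPM in the unamputated, 12, 17 and 28 dpa libraries, and in macrophage or monocyte-like cells at 12.4, 15.5, 23.3 and 29.6 CPM. In keratinocyte-like cells it was at 21.0, 35.0, 35.2 and 43.6 CPM. The unamputated library was lowest in all 3, with its interval below that of 28 dpa. Tef was past 2-fold at 28 dpa in these 3 classes, with log2 ratios of 1.05, 1.19 and 1.02. Its mean over the 10 classes was 0.48 (0.32 to 0.64), 0.33 (0.16 to 0.51) and 0.62 (0.41 to 0.84) at 12, 17 and 28 dpa. Its exons overlap Gm17597 on the other strand.

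Hlf (chr11:90336536-90390895), the third PAR bZIP factor, differed in direction between classes. Its mean over classes was 0.11 (-0.12 to 0.34), 0.45 (0.21 to 0.68) and 0.52 (0.24 to 0.80) at 12, 17 and 28 dpa, close to that of Tef at 28 dpa, with 6 classes higher and 4 lower at each time. T or NK lymphocyte-like cells held 187, 263, 72.1 and 67.3 CPM of Hlf in the unamputated, 12, 17 and 28 dpa libraries. Keratinocyte-like cells held 71.1, 59.3, 85.6 and 52.6 CPM, while macrophage or monocyte-like cells held 0.556, 0.785, 0.548 and 1.28 CPM. In lymphocyte-like cells the 2 later libraries lay below the 2 earlier ones with intervals apart, and keratinocyte-like cells were highest at 17 dpa. Vascular endothelial-like cells went the other way, with 3.80, 4.22, 17.4 and 27.5 CPM, the later 2 libraries above the earlier 2. The log2 ratio at 28 dpa over unamputated was 2.57 in vascular endothelial-like, 1.36 in mural-like, 1.30 in tenocyte-like, -0.43 in keratinocyte-like and -1.46 in T or NK lymphocyte-like cells. Within the finer Fmod-led tenocyte-like cluster it was 0.86 (0.50 to 1.22). In the finer fibroblast-like clusters it was 1.36 (0.77 to 1.96) in the Sdk1-led and -0.41 (-0.76 to -0.06) in the Igf1-led one. The SD of this ratio over classes was 1.12, against 0.63 for Dbp, and 7 of 10 classes had a mean Hlf level of at least 5 CPM.

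Nr1d1 (chr11:98767932-98775333), which encodes the REV-ERB alpha repressor, was the other member that was higher at 28 dpa in every class. In fibroblast-like cells it was at 34.7, 73.4, 45.1 and 120 CPM in the unamputated, 12, 17 and 28 dpa libraries, and in tenocyte-like cells at 28.2, 44.8, 38.6 and 118 CPM. In macrophage or monocyte-like cells it was at 10.4, 16.8, 18.7 and 51.1 CPM. In all 3 classes the 28 dpa interval lay above the rest and the unamputated library was lowest. In vascular endothelial-like cells Nr1d1 was at 38.0, 38.0, 45.0 and 78.1 CPM, in keratinocyte-like cells at 21.1, 23.9, 25.4 and 46.9 CPM, and in mural-like cells at 29.96, 39.6, 39.4 and 70.5 CPM. The 28 dpa interval again lay above the rest, and the other 3 libraries were closer to one another than to it.

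The Nr1d1 log2 ratio at 28 dpa over unamputated ranged from 0.65 in T or NK lymphocyte-like cells to 2.20 in macrophage or monocyte-like cells and was past 2-fold in 9 of 10 classes. Its mean over classes was 0.28 (0.091 to 0.47), 0.23 (0.026 to 0.44) and 1.40 (1.22 to 1.58) at 12, 17 and 28 dpa, and 1.17 (0.93 to 1.40) at 28 over 17 dpa. The 12 dpa mean is lowered by dendritic-like cells at -2.10, from 0 UMIs against 11. The 17 dpa mean is lowered by T or NK lymphocyte-like cells at -1.07, from 4 UMIs against 26. At 12 dpa, where Dbp was already at a mean of 1.27, Nr1d1 was past 2-fold higher in only 2 classes, fibroblast-like (1.06) and cartilage or joint lining-like (1.13). Nr1d1 exons overlap those of Thra on the other strand. Nr1d2 (chr14:18204054-18239127), the REV-ERB beta gene, had smaller mean ratios than Nr1d1. It was at 58.7, 59.3, 63.1 and 84.0 CPM in fibroblast-like cells and at 64.4, 64.3, 54.3 and 61.8 CPM in keratinocyte-like cells. Its largest ratio at 28 dpa, 0.84, was in macrophage or monocyte-like cells, at 49.2, 42.3, 55.9 and 88.9 CPM, a class whose makeup differed between libraries. Its mean ratio over classes was -0.04 (-0.14 to 0.06), -0.17 (-0.28 to -0.06) and 0.16 (0.04 to 0.28) at 12, 17 and 28 dpa, and 0 classes were past 2-fold higher at any of the 3. At 28 dpa 6 classes were higher and 4 lower. At 28 over 17 dpa the Nr1d2 mean was 0.33 (0.18 to 0.48), with 9 classes higher and 1 lower.

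**Figure D2:**
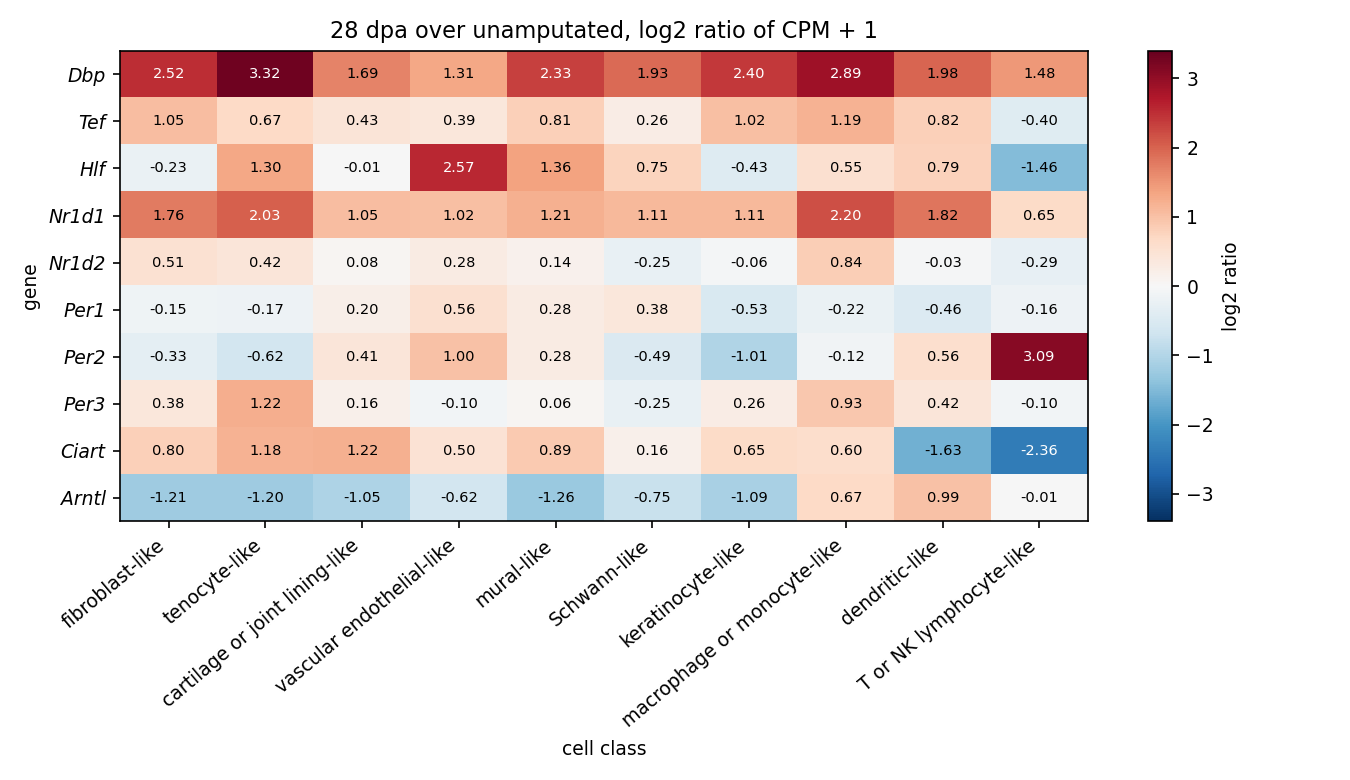
Log2 ratio of CPM plus 1 at 28 dpa over unamputated for the 10 members (rows) in 10 cell classes (columns), red for higher and blue for lower at 28 dpa. The Dbp and Nr1d1 rows are positive in every class, and the Arntl row is negative in 8 of 10.

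The Period genes, which encode the repressors of the loop's negative limb, showed no common direction. Per1 (chr11:69095217-69109960), also an early-response gene, was at 17.2, 18.6, 19.7 and 15.4 CPM in fibroblast-like cells and at 28.0, 31.9, 24.9 and 23.9 CPM in macrophage or monocyte-like cells of the unamputated, 12, 17 and 28 dpa libraries. In mural-like cells it was at 32.0, 27.2, 33.6 and 39.0 CPM. The highest library differed between these classes. The Per1 mean over classes was 0.02 (-0.12 to 0.16), 0.10 (-0.04 to 0.23) and -0.03 (-0.20 to 0.14) at 12, 17 and 28 dpa, with 0 classes past 2-fold in either direction at any of the 3.

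Per2 (chr1:91415982-91459324) was at 11.5, 19.5, 15.6 and 8.88 CPM in fibroblast-like cells, at 10.8, 8.26, 9.50 and 4.85 CPM in keratinocyte-like cells and at 8.47, 13.4, 14.0 and 17.9 CPM in vascular endothelial-like cells. It was lowest at 28 dpa in the first 2 of these classes and highest at 28 dpa in the third. The log2 ratios at 28 dpa over unamputated were -0.33, -1.01 and 1.00. The ratio of 3.09 in T or NK lymphocyte-like cells came from 4 UMIs against 2. The Per2 mean over classes was 0.35 (0.05 to 0.64), 0.22 (-0.09 to 0.53) and 0.28 (-0.02 to 0.57) at 12, 17 and 28 dpa. The 28 dpa mean is positive only with that T or NK lymphocyte-like ratio, and 5 classes were higher and 5 lower. Over clusters the median was -0.40 at 28 dpa, with 10 higher and 13 lower of 23, so the mean over classes and the median over clusters differed in sign. Over the finer clusters the Per2 median was 0.027, with 17 higher and 16 lower of 33.

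Per3 (chr4:151003652-151044665), whose promoter held both D-boxes shown above, was at 21.0, 22.8, 28.1 and 27.5 CPM in fibroblast-like cells and at 10.9, 19.1, 16.1 and 26.7 CPM in tenocyte-like cells. In mural-like cells it was at 23.2, 24.0, 24.4 and 24.3 CPM. Tenocyte-like cells were the one class past 2-fold at 28 dpa, at 1.22, and within the finer Fmod-led cluster the ratio was 1.19 (0.79 to 1.59). In the finer Sdk1-led fibroblast-like cluster it was 1.55 (1.14 to 1.96), against 0.38 for the whole fibroblast-like class, and the intervals of all 4 libraries overlapped in mural-like cells. The Per3 mean was 0.16 (-0.06 to 0.37), 0.25 (0.03 to 0.46) and 0.30 (0.02 to 0.58) at 12, 17 and 28 dpa. Per3 overlaps Camta1 on the same strand, but not in exons. Ciart (chr3:95878503-95882251) was low throughout, with a mean of at least 5 CPM in 1 class, the macrophage or monocyte-like cells, where it was at 5.41, 5.72, 5.66 and 8.70 CPM. In fibroblast-like cells it was at 0.542, 2.01, 0.541 and 1.68 CPM from 7, 9, 10 and 37 UMIs. The 12 and 28 dpa libraries were the higher ones there. The Ciart mean over classes was -0.16 (-0.52 to 0.20), -0.14 (-0.49 to 0.21) and 0.20 (-0.20 to 0.60) at 12, 17 and 28 dpa.

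Arntl (chr7:113207465-113314126), the positive limb of the loop, was lower in most classes where Dbp was higher. In fibroblast-like cells it was at 73.6, 38.0, 69.9 and 31.3 CPM in the unamputated, 12, 17 and 28 dpa libraries, and in tenocyte-like cells at 72.1, 28.8, 47.2 and 30.8 CPM. In mural-like cells it was at 52.2, 19.0, 32.2 and 21.2 CPM. The 12 and 28 dpa libraries were low in these 3 classes, with intervals below those of the unamputated and 17 dpa libraries. In keratinocyte-like cells Arntl was at 62.5, 39.8, 48.8 and 28.8 CPM, in vascular endothelial-like cells at 63.2, 30.1, 59.0 and 40.7 CPM, and in cartilage or joint lining-like cells at 63.7, 21.3, 51.5 and 30.3 CPM. The unamputated library was highest for Arntl in 8 of 10 classes, and the 12 dpa library lowest in 7.

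The Arntl mean over classes was -0.93 (-1.06 to -0.79), -0.24 (-0.35 to -0.14) and -0.55 (-0.67 to -0.43) at 12, 17 and 28 dpa, and relative to the median of all genes -0.77, -0.17 and -0.41. At 28 dpa it was past 2-fold lower in 5 classes, the fibroblast-like (-1.21), tenocyte-like (-1.20), mural-like (-1.26), keratinocyte-like (-1.09) and cartilage or joint lining-like (-1.05) cells. It was higher in 2, the macrophage or monocyte-like (0.67) and dendritic-like (0.99) cells, the second from 52 and 18 UMIs. In T or NK lymphocyte-like cells it was at 136, 105, 116 and 135 CPM, with all intervals overlapping. Gm45355 overlaps Arntl exons on the other strand.

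The macrophage or monocyte-like class differed in makeup between libraries. A cluster led by Ms4a7, Ctss and Mmp12 held 1459 of its 1733 cells in the unamputated library and 258 of 1421 at 28 dpa, and one led by F13a1, Pf4 and Lyve1 held 110 and 1132. Within them Arntl was at 32.5 and 59.2 CPM in the unamputated library and at 32.3 and 59.2 CPM at 28 dpa, log2 ratios of -0.0067 (-0.36 to 0.35) and -0.0017 (-0.35 to 0.35). The higher Arntl level of the whole class at 28 dpa was therefore not seen within either cluster. Dbp was at 6.74, 15.1, 18.2 and 18.6 CPM in the Ms4a7-led cluster of the unamputated, 12, 17 and 28 dpa libraries, and at 7.51, 32.7, 41.3 and 64.98 CPM in the Lyve1-led cluster, where the 12 dpa value came from 16 cells and 5 UMIs. In the Ms4a7-led cluster the intervals at 12, 17 and 28 dpa overlapped. At 28 dpa over unamputated Dbp was higher within both, by 1.34 (0.85 to 1.83) and 2.96 (2.12 to 3.80), and Nr1d1 by 1.21 and 2.01. At 28 over 17 dpa the Dbp ratios within them were 0.028 (-0.48 to 0.53) and 0.64 (0.41 to 0.87), against 1.00 for the whole class, so the 2-fold step between those libraries was not seen within either cluster. Tef at 28 dpa over unamputated was -0.05 (-0.60 to 0.50) in the first and 2.03 (1.18 to 2.87) in the second, where 9 UMIs were counted in the unamputated library. In the 2 fibroblast-like clusters Arntl was lower at 28 dpa by -1.04 and -1.24, and in the finer Igf1-led and Sdk1-led clusters by -1.10 and -1.05.

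The number of Dbp UMIs per Arntl UMI within a class needs no scaling between libraries, and it is read here across libraries only, not as a level of one gene against the other. In fibroblast-like cells it was 0.243, 1.43, 0.426 and 3.43 in the unamputated, 12, 17 and 28 dpa libraries, and in mural-like cells 0.342, 2.56, 1.17 and 4.43. In keratinocyte-like cells it was 0.123, 0.582, 0.439 and 1.56. The 12 and 28 dpa libraries were the high ones in each. The median over the 10 classes was 0.179, 1.18, 0.517 and 1.51, and the unamputated classes ranged from 0.0385 to 0.393. Except in dendritic-like cells, where 0 to 3 Dbp UMIs were counted, the ratio was lowest in the unamputated library in every class.

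**Figure D3:**
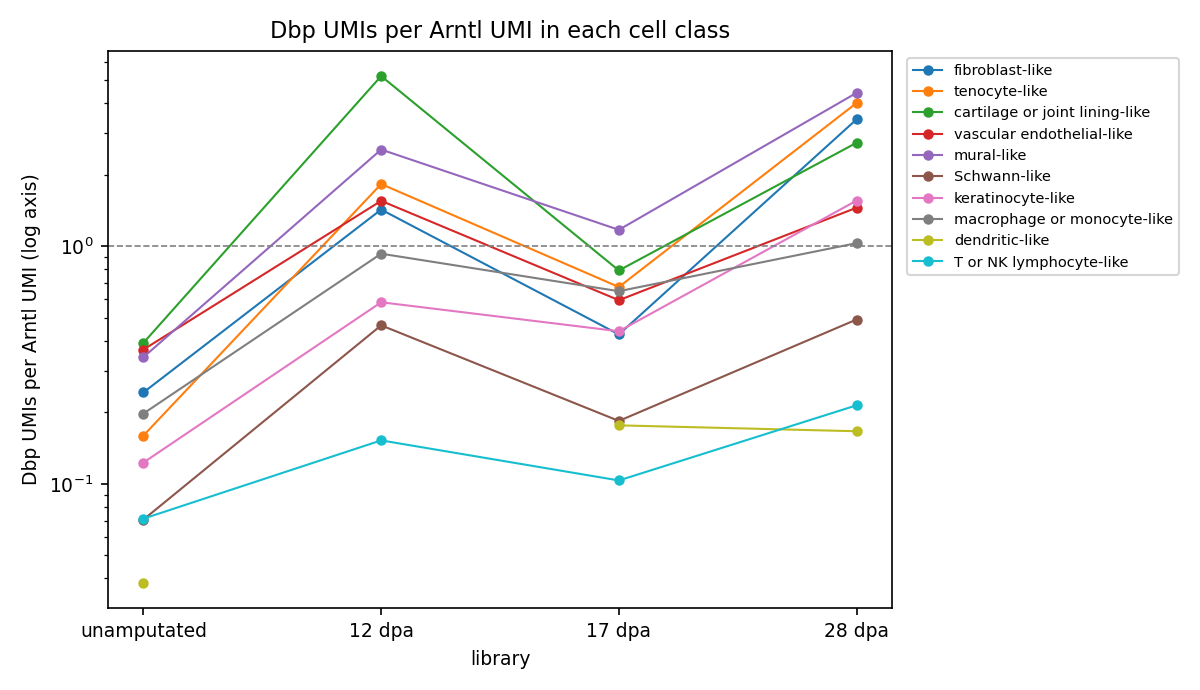
Dbp UMIs per Arntl UMI on a log axis for 10 cell classes (coloured lines) in the 4 libraries; the dashed line marks equal UMIs, and the dendritic-like point at 12 dpa, 0 Dbp UMIs, is not drawn. The lines lie higher at 12 and 28 dpa than in the unamputated library, and the 17 dpa point lies below both in 9 of 10 classes.

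Read against all genes, few members were past 2-fold in at least 5 of the 10 classes. Of the 10 members, 9 had a mean over the 4 libraries of at least 5 CPM in at least 5 classes, Ciart being the exception. At 12 dpa 1 of 9 members, Dbp, was called higher, where 0.412% of 10185 genes were, and 0 were called lower, where 0.304% were. At 17 dpa the counts were 1, again Dbp, against 0.363% of genes, and 0 against 0.226%. That call at 17 dpa needed the dendritic-like cells as the fifth class, and Dbp was past 2-fold in 4 classes without them. At 28 dpa Dbp and Nr1d1 were called higher, 2 of 9 against 1.33% of genes, and Arntl was called lower, 1 of 9 against 1.52%. At 28 over 17 dpa Dbp and Nr1d1 were called higher, against 0.363% of genes, and 0 members lower, against 0.422%. Nr1d1 was past 2-fold there in 6 classes. They included dendritic-like cells, with 8 UMIs against 4, and T or NK lymphocyte-like cells, with 6 against 4. Without those 2 classes Nr1d1 would not have been called. Because Dbp at 28 dpa chose the set, nothing is read from these counts about the members as a group.

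In fibroblast-like cells alone, where 10211 genes reached 5 CPM, Dbp and Nr1d1 were at least 2-fold higher at 12 dpa (2 of 9 members, against 0.823% of genes) and 0 members were lower (4.30% of genes). At 17 dpa 0 members were higher and 0 lower, where 0.480% and 1.22% of genes were. At 28 dpa Dbp, Tef and Nr1d1 were higher (3 of 9, against 2.28% of genes) and Arntl lower (1 of 9, against 5.60%).

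Of 15 other clock genes listed, 12 reached 5 CPM in at least 5 classes. By mean ratio 0 were higher and 12 lower at 12 dpa, and 3 were higher and 9 lower at both 17 and 28 dpa. The median over all genes was also below 0, and the share of all genes that were lower was not counted. The median of their means was -0.37, -0.10 and -0.39 at 12, 17 and 28 dpa, beside -0.16, -0.07 and -0.16 over all genes. Npas2, a partner of Arntl that can stand in for Clock, was at 137, 48.8, 78.8 and 46.2 CPM in fibroblast-like cells of the unamputated, 12, 17 and 28 dpa libraries and at 31.8, 6.52, 16.9 and 9.76 CPM in keratinocyte-like cells. It was lowest at 12 and 28 dpa in both of these classes. Over all 10 it was past 2-fold lower in 7, 4 and 5 classes at 12, 17 and 28 dpa, with means of -1.55 (-1.85 to -1.25), -0.84 (-1.15 to -0.53) and -0.93 (-1.30 to -0.57), so that 17 and 28 dpa were close. Named after their values were seen, Nfil3, a repressor acting at the same D-box as Dbp, had a mean of -0.84 (-1.002 to -0.68) at 28 dpa, Cry1, a partner of the Period proteins, -0.62 (-0.80 to -0.44), and Bhlhe41, a repressor of the Clock and Arntl pair, 0.89 (0.57 to 1.20) with 10 of 10 classes higher.

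**Figure D4:**
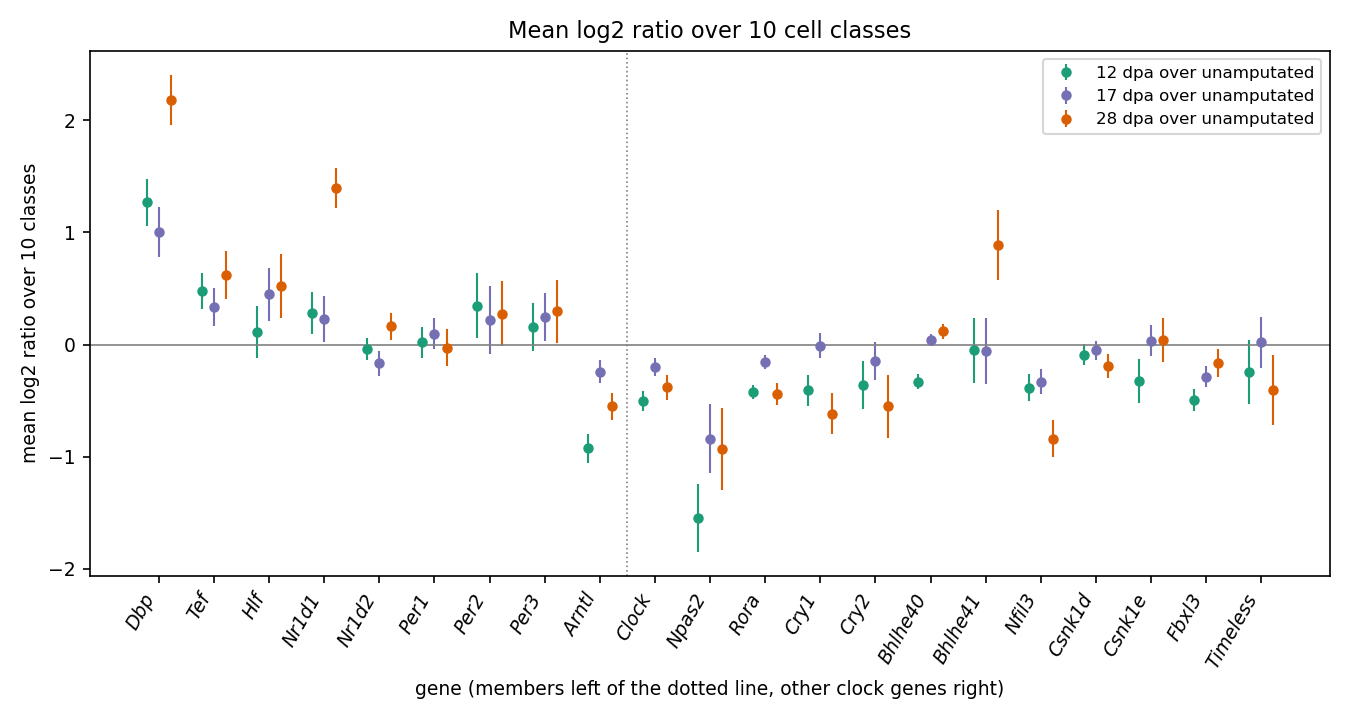
Mean log2 ratio over 10 cell classes for 9 members (left of the dotted line) and 12 other clock genes (right), at 12, 17 and 28 dpa over unamputated; bars are 95% intervals for counting error. Dbp, Nr1d1 and Bhlhe41 stand highest at 28 dpa, and Npas2 and Arntl lowest at 12 dpa.

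Other lists were read because daily rhythm, stress hormones and handling can all move clock genes. Beside their counts and medians stand all-gene medians of -0.16, -0.07 and -0.16 at 12, 17 and 28 dpa. Of 15 genes known to cycle in many tissues, 14 reached 5 CPM in at least 5 classes, and 4 were higher and 10 lower at 12 dpa, with a median of -0.21, against 8 and 6 at both 17 and 28 dpa, with medians of 0.07 and 0.03. Cdkn1a, a cell cycle inhibitor, was past 2-fold higher in 7 classes at 28 dpa and stood at 50.9, 59.8, 117 and 251 CPM in fibroblast-like cells. Of 11 glucocorticoid response genes, 10 did so, and 3 were higher and 7 lower at 12 dpa, with a median of -0.12, against 7 and 3 at both 17 and 28 dpa, with medians of 0.33 and 0.40. Mt1 and Mt2, which encode metal-binding metallothioneins, were past 2-fold higher in 7 classes each, with means of 1.18 and 1.28, while Fkbp5, a glucocorticoid target named after its values were seen, was at -0.58. Of 17 immediate early and dissociation genes, 0 were higher and 17 lower at 12 dpa, with a median of -0.47, and 12 were higher and 5 lower at both 17 and 28 dpa, with medians of 0.20 and 0.15. Fosb, an early-response factor, was past 2-fold lower in 5 classes at 12 dpa, with a mean of -1.09. The part of hormones, handling or depth in the member values was not tested.

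The genes most like Dbp were sought over 40 points, 10 classes in 4 libraries, after the mean of each class was taken off, among 10114 genes. The points share libraries and depth, so the correlations are descriptions. Emp3, a membrane protein gene, was the closest (r = 0.88), and Nr1d1, a member, was second (0.85). Cox14, Crip1, Rabac1, 0610012G03Rik, Hsbp1, Dpy30, Rpp21 and Avpi1 followed at 0.84 to 0.81. The most opposite were Phlpp1 (-0.86), Hnrnpa0, Maml3, Nf1 and Gak (-0.83). Emp3 had means of 0.70, 0.44 and 1.08 at 12, 17 and 28 dpa and Phlpp1 of -0.53, -0.38 and -0.95, values that the choice by correlation had already used. Of the other members, Tef ranked 22 (0.79) and Per3 stood at 0.63, while Nr1d2, Hlf, Ciart, Per2 and Per1 stood at 0.37, 0.35, 0.26, 0.20 and 0.035 and Arntl at -0.42. The 15 other clock genes ran from -0.69 for Nfil3 to 0.53 for Bhlhe41.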

How the data were processed

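Single-cell RNA was measured in 4 mouse digit libraries with 10x Chromium 3′ v3 chemistry, per the labels' protocols. The deposited values were whole-number UMI counts per gene and cell, made by the authors with Cell Ranger 7.1.0 on mm10, per the submitters' processing notes. The annotation, strand setting and cell-calling settings are not given in the sources used here. Gene coordinates are from GENCODE M21 by Ensembl ID.

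A cell was kept if it held 500 or more genes and 1000 or more UMIs, with no more than 10% of UMIs from mitochondrial genes. Doublets were removed by Scrublet score at 0.8% per 1000 barcodes. The 4 libraries were clustered together in scanpy 1.11.5 (2000 variable genes, 30 components, 15 neighbours, Leiden resolution 1) into 28 clusters. Clusters were named from marker lists by a scoring rule written after the clusters were seen, needing at least 3 detected markers and at least 1 among the 10 leading genes, and 3560 cells stayed unnamed. Class shares are not compared. Counts were summed per library and class and given as CPM with exact Poisson 95% intervals. Ratios are log2 of CPM plus 1, which understates the change of low genes. Genes needed a mean over the 4 libraries of 5 CPM in at least 5 classes, or in fibroblast-like cells where these were read alone. No p-value was computed because each condition had 1 library. Scaling factors for an alternative came from edgeR 4.0.16. The ratio and interval code was tested on simulated data. All members are named. From the other lists, genes past 2-fold in at least 5 classes are named, and genes like Dbp are the 10 highest and 5 lowest by correlation. The members, lists and rules were chosen with earlier results of these data known. The closing section gives 17 alternatives, 3 of them added after seeing the data. PCR duplicates are collapsed by UMI, and intervals cover counting error only.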

Additional observations from a re-analysis of the deposited data

How the results depend on the processing

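Over the 17 alternatives (16 at 12 dpa, where cells with Y-linked transcripts gave no value) the mean Dbp ratio ran from 1.115 to 1.59, 0.75 to 1.16 and 1.81 to 2.46 at 12, 17 and 28 dpa, and the mean Arntl ratio from -1.11 to -0.80, -0.36 to -0.17 and -0.81 to -0.38, so neither changed sign. The mean Tef ratio ran from 0.31 to 0.64, 0.29 to 0.55 and 0.38 to 0.85, and the mean Hlf ratio from -0.15 to 0.20, 0.18 to 0.80 and 0.25 to 0.87, at the same times. Of 4000 member values by class under the alternatives, 233 changed sign, 8 of them where the interval of the reported value left out 0 (3 of Hlf, 2 of Nr1d2, 1 of Per2 and 2 of Per3). The 4 of Dbp were dendritic-like cells at 12 dpa with stricter filters (0.41) and with each cell named alone (0.78), against -0.68 as reported, T or NK lymphocyte-like cells at 17 dpa when thinned (-0.87, against 0.29) and Schwann-like cells at 17 dpa in cells with Y-linked transcripts (-0.15, against 0.82). Arntl had 12. The Dbp mean moved by more than its counting error at 28 dpa with stricter cell filters (1.93), each cell named alone (1.86), a pseudocount of 5 (1.81) and classes of at least 200 cells (2.46), at 17 dpa with a pseudocount of 5 (0.76) or thinned cells (0.75), and at 12 dpa without dendritic-like and T or NK lymphocyte-like cells (1.59, added after seeing the data). The number of classes with Dbp past 2-fold was 3 at 17 dpa with a pseudocount of 5 and 6 of 6 at 28 dpa with classes of at least 200 cells. With clusters in place of classes, also added, it was 13, 11 and 18 of 18 at 12, 17 and 28 dpa, and with clusters at Leiden resolution 2, added likewise, 18, 13 and 23 of 25. The Arntl mean at 28 dpa was -0.38 with no doublets removed, -0.38 at Leiden resolution 2, -0.42 with median-of-ratios scaling, -0.69 in cells with Y-linked transcripts, -0.79 with classes of at least 200 cells, -0.74 over clusters and over those at resolution 2 (-0.737) and -0.81 without dendritic-like and T or NK lymphocyte-like cells. Over clusters at resolution 2 it was -1.106 and -0.36 at 12 and 17 dpa. At 12 dpa it was -1.06 with stricter filters and -1.06 without those 2 classes. Of 500 member means, 49 changed sign. The 4 whose reported interval left out 0 were Per3 at 28 dpa with stricter filters (-0.21), Nr1d1 at 12 dpa with a pseudocount of 0.1 (-0.0019), Per2 at 12 dpa with thinned cells (-0.24) and Nr1d2 at 17 dpa with classes of at least 200 cells (0.058). The other 45 had reported intervals that held 0 and were of Hlf, Nr1d2 and Per3 at 12 dpa (as far as -0.15, 0.090 and -0.20), Per1 at 12 and 28 dpa (-0.15 and 0.13), Per2 at 17 and 28 dpa (-0.24 and -0.14) and Ciart at 12, 17 and 28 dpa (0.42, 0.16 and -0.02). In cells with Y-linked transcripts the Dbp mean at 28 dpa was 2.20. The causes of these shifts were not tested. No paired analysis was possible because each group holds 1 library. Among the 10 classes, counting error was widest for Dbp in dendritic-like and T or NK lymphocyte-like cells, with at most 14 Dbp UMIs in any library.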

Other observations

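A cluster of 1382 cells left unnamed, led by Acp5, Fxyd2 and Atp6v0d2, of which Acp5 and Atp6v0d2 are known from bone-resorbing cells, lay outside every class. In it Dbp was at 3.68, 9.74, 18.8 and 26.5 CPM in the unamputated, 12, 17 and 28 dpa libraries, and Nr1d1 at 14.1, 26.0, 21.8 and 62.1 CPM. Arntl was at 37.6, 21.3, 49.4 and 89.6 CPM, highest at 28 dpa, with a log2 ratio of 1.23 (0.96 to 1.503) over unamputated. The cluster was mixed. At Leiden resolution 2, 94, 65, 96 and 52 of its cells in the 4 libraries fell in a finer cluster led by Acp5, Atp6v0d2 and Mmp9. Another 45, 49, 155 and 513 fell in one led by Fxyd2, Cd36 and Pf4. A further 70, 60, 41 and 22 fell in one led by Mmp12, Clec4e and Cxcl3, and 7, 0, 29 and 67 in one led by F13a1, Pf4 and Lyve1. With cells from other clusters, the Acp5-led finer cluster held 94, 65, 96 and 54 cells and the Fxyd2-led one 58, 86, 182 and 535. Within the Acp5-led and Fxyd2-led finer clusters the Arntl ratio at 28 dpa over unamputated was 1.09 (0.55 to 1.63) and 0.29 (-0.20 to 0.78). The Dbp ratio was 2.51 (1.59 to 3.43) and 1.48 (0.18 to 2.77), the last from 4 unamputated UMIs. The whole cluster held 221, 177, 325 and 659 cells in the 4 libraries.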
